A study of Rattus norvegicus with 9 samples.

Results

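The nerve supply of the rat uterus was read through 8 genes: the myelin genes Mbp and Pmp22, the Schwann cell genes Sox10 and Ngfr, the growth cone gene Gap43, the neuronal filament genes Prph and Nefl, and Th, the enzyme that starts noradrenaline synthesis. Their probe sets were found by gene symbol, and the genes themselves were picked with earlier results of these data known; they make up 8 of the 14217 genes that the array annotation names singly. The 8 genes had 13 probe sets among 31042. A single probe set measured Ngfr, Sox10, Prph and Th, Pmp22, Gap43 and Nefl had 2 each, and Mbp had 3.

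Uterine tissue of female rats was hybridised to 9 Affymetrix arrays in 3 groups of 3. Treatment rats (arrays 31, 32 and 33) were given electroacupuncture at 2 points, Guanyuan and Sanyinjiao, in 15 min sessions over 7 days, which went on while ovulation was induced with pregnant horse serum gonadotropin (PMSG, at 0.5 U for each animal) and, 48 h later, as much chorionic gonadotropin (HCG). Model rats (21, 22 and 23) received the induction alone, and control rats (41, 42 and 43) nothing. The labels give no cycle stage, strain or age. The labels count 18 rats, 6 in each group, without saying that an array was 1 rat, so p-values measure the spread between arrays, which may be technical.

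The uterus receives sympathetic, parasympathetic and sensory fibres that run along its vessels and into the myometrium. Their cell bodies lie outside it, in ganglia near the cervix and along the spine, so most mRNA of the neurons themselves is made elsewhere, while Schwann cells, which ensheathe the axons, make theirs in the tissue. In rodents the uterine sympathetic fibres are known to withdraw and regrow with oestrogen, which makes these genes of interest in a gonadotropin-treated uterus. Several of the 8 are not confined to nerve: Pmp22 is made by fibroblasts and epithelia, and Ngfr by perivascular and other stromal cells and by some epithelial cells.

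Values are the deposited intensities on a linear scale, and tests used log2(intensity + 16), which shrinks the changes of dim genes. Medians of the 9 arrays were 23.50 to 23.96. Control 43 was unlike the other controls: over all probe sets its log2 values correlated at r = 0.945 with control 41 and 0.959 with control 42, against 0.989 between controls 41 and 42, and its nearest array was model 21 (r = 0.985). Its Actb 3' to 5' ratio of 7.84, a measure of RNA integrity, was the highest of the arrays (5.07 to 7.84). The differences of tested members from the controls are given with and without it.

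Most of the 8 genes were near background in every array. A probe set was tested if it reached the 40th percentile of its own array, an intensity of 15.2 to 16.2, in at least 3 of the 9 arrays. Of the 13 probe sets 5 did so, and the other 8 ranged from 2.13 to 12.4, never above the 34.8th percentile. Detection calls were not used here, so 14 genes made in other tissues, among them genes of the retina, lens, pancreatic islet, pituitary, liver and sperm, served as a guide to background. Those 14 spanned 4.21 to 37.0, with a median of 8.12 over their own medians. The 40th percentile is thus no proof of expression: 3 of the guide genes passed it, and Ins1, an insulin gene, reached the 60.6th percentile.

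**Figure D1:**
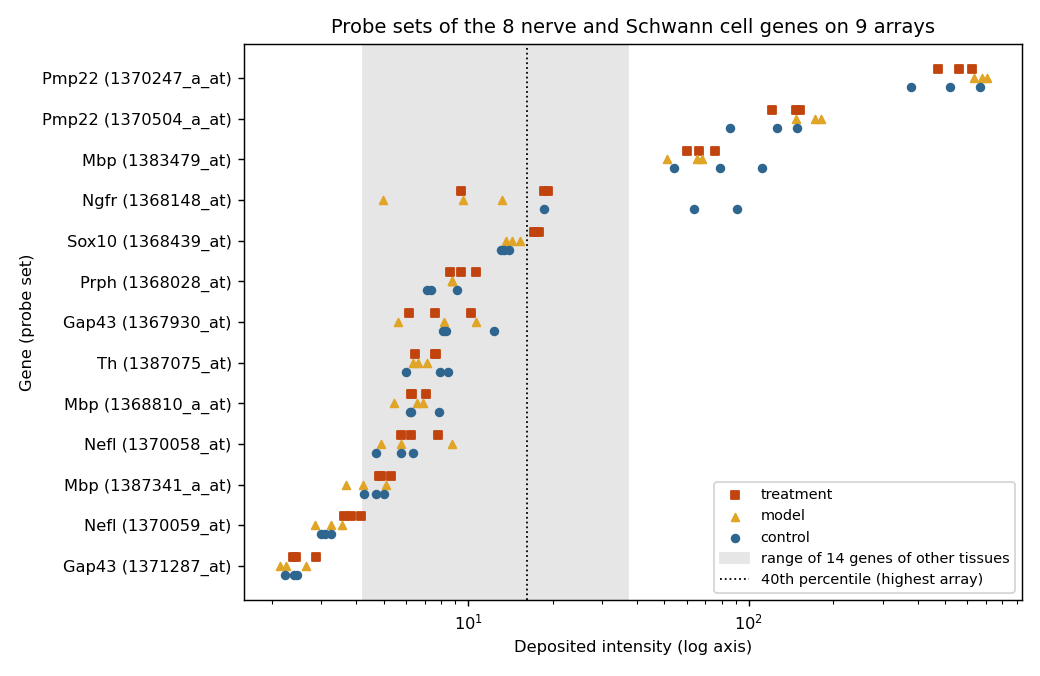
Deposited intensity (log axis) of each probe set of the 8 genes, 1 point per array in the treatment, model and control groups. The grey band is the range of the 14 genes of other tissues (4.21 to 37.0), and the dotted line the 40th percentile; only the Pmp22 probe sets and 1 Mbp probe set lie above the band on every array, and Ngfr does so in controls 41 and 42.

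The axonal members gave no signal that could be told from background. Prph encodes peripherin, the intermediate filament typical of peripheral neurons. It measured 10.7, 9.44 and 8.59 in treatment arrays 31, 32 and 33, 8.77, 8.76 and 8.76 in model arrays 21, 22 and 23, and 7.35, 9.09 and 7.13 in control arrays 41, 42 and 43. Th measured 7.63, 7.66 and 6.48 in treatment arrays, 7.13, 6.62 and 6.37 in model arrays, and 7.92, 8.46 and 5.99 in control arrays. Both genes lay near the middle of the guide genes, and for both the groups overlapped in all 3 comparisons.

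The brighter Gap43 probe set, for a protein of growing axons, measured 7.63, 10.2 and 6.14 in treatment, 10.7, 8.17 and 5.61 in model, and 8.14, 8.36 and 12.4 in control arrays. The second Gap43 probe set never passed 2.86. Nefl, the light neurofilament chain, measured 7.81, 6.25 and 5.74 in treatment, 5.76, 4.88 and 8.74 in model, and 4.68, 5.76 and 6.35 in control arrays with its brighter probe set, and at most 4.16 with the other. With these brighter probe sets the groups of Gap43 and Nefl overlapped in all 3 comparisons. The dimmer Nefl probe set, wholly below the guide genes, read 3.61 to 4.16 in treatment, 2.85 to 3.54 in model and 2.99 to 3.25 in control arrays, with treatment above the others. Among genes tested, treatment did not overlap control for 23.3% and did not overlap model for 28%. When the filter was dropped and all 14217 genes were fitted, log2 fold changes of Gap43, Prph, Th and Nefl stayed between -0.094 and 0.100, with adjusted p of 0.269 to 0.977 in limma. Of the 8 genes 0 passed in that fit, where 0.352% of genes passed in treatment against control, 0.00703% in model against control and 0% in treatment against model. Changes in these 4 transcripts were not detectable at this signal.

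Sox10, the transcription factor that defines the Schwann cell lineage, sat at the threshold. It measured 17.3, 17.8 and 17.2 in treatment arrays 31, 32 and 33, 15.3, 13.6 and 14.4 in model arrays 21, 22 and 23, and 13.98, 13.46 and 13.1 in control arrays 41, 42 and 43. The treatment arrays were above all others, and they alone reached the 40th percentile (41.8 to 42.7), so Sox10 entered the test only through the group in which it was high. The log2 fold change was 0.18 in treatment against control (SE 0.044, 95% confidence interval 0.08 to 0.28, adjusted p = 0.124) and 0.14 in treatment against model (SE 0.044, adjusted p = 0.286), and neither passed. Groups did not overlap for Sox10 in treatment against control, as for 23.3% of genes, nor in treatment against model, as for 28% of genes. In model against control the log2 fold change was 0.04 (interval -0.06 to 0.14, adjusted p = 0.667). Without control 43 the values were 0.17 in treatment (adjusted p = 0.0977) and 0.03 in model against control (adjusted p = 0.707).

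Other dim probe sets leaned the same way as Sox10. Of the 14 guide genes 13 had a higher mean in treatment than in control arrays, with a median log2 difference of 0.062, and 13 a higher mean in treatment than in model arrays. Among the 3141 probe sets whose mean percentile lay between 35 and 45, 63.0% were higher in treatment than in control arrays (median log2 difference 0.034) and 63.4% higher in treatment than in model arrays. The part of this lean in the Sox10 values was not tested. Sox10 itself never left the range of the guide genes, so the arrays do not show whether a Schwann cell transcript was measured.

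Mbp encodes myelin basic protein, which compacts the myelin sheath. One of its probe sets ran from 51.3 to 111.3, above the guide genes on every array, while the other 2 stayed between 3.66 and 7.88, near background. In rodents the Mbp gene has a further, upstream start that yields the golli proteins, which are also made outside myelinating cells, as in lymphocytes. The annotation does not say which transcripts each probe set reads. The RefSeq promoter table of the rat (GRCr8) held 4 of the 8 genes and listed both Mbp starts. They are shown with that of Pmp22, the brightest member, as the 250 bases before each start, with capitals for matches on either strand to the motifs searched. The basal promoter motifs searched were TATAAA, the TATA box where transcription is set in place, the CCAAT motif, which is bound by NF-Y, and the GC box GGGCGG, which is bound by Sp1. The oestrogen receptor half-site GGTCA was added because the rats received gonadotropins, and ACAAAG because it is a core that SOX proteins such as the Sox10 product bind. A match on the minus strand appears in the printed strand as its reverse complement.
Pmp22, chr10:48294682-48294931, plus strand: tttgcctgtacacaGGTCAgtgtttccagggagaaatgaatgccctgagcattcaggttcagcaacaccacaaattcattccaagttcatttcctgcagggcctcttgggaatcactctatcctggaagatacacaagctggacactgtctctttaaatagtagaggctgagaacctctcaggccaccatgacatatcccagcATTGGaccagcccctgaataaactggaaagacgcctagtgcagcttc
Mbp upstream start, chr18:78130402-78130651, plus strand: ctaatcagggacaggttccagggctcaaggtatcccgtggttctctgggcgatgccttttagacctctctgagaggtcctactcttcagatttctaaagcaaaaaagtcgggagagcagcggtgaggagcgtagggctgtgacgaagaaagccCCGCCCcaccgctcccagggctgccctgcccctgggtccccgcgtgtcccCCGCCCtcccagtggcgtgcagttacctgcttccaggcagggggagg
Mbp downstream start, chr18:78209995-78210244, plus strand: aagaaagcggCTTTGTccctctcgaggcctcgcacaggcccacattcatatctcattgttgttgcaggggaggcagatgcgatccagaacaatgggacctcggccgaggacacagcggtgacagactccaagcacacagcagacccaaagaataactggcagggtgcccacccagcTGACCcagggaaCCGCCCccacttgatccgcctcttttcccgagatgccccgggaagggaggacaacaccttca
The Mbp upstream window held GGGCGG starting 97 and 47 bases before the start. The downstream window held 1 GGGCGG, 62 bases before, with GGTCA 74 and ACAAAG 240 bases before its start. The Pmp22 window held CCAAT 47 bases and GGTCA 236 bases before its start. No 2 matches overlapped, and TATAAA was in none of the 3 windows. Of 33469 windows of this length in the table, 30.5% held GGGCGG, 35.4% GGTCA, 34.0% CCAAT, 16.3% ACAAAG and 12.9% TATAAA, so these matches are common and describe letters only.

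The bright Mbp probe set measured 60.1, 66.4 and 75.7 in treatment arrays 31, 32 and 33, 51.3, 65.4 and 68.2 in model arrays 21, 22 and 23, and 111.3, 78.9 and 53.9 in control arrays 41, 42 and 43. Controls 41 and 42 were the highest arrays and control 43 the second lowest, so the controls spanned the treatment group and all of the model group but model 21. Mbp differed by -0.18 on the log2 scale in treatment against control (SE 0.20, interval -0.65 to 0.28, adjusted p = 0.675), by -0.29 in model against control (interval -0.76 to 0.17, adjusted p = 0.538) and by 0.11 in treatment against model (interval -0.36 to 0.57, adjusted p = 0.811). Without control 43 it still did not pass, at -0.40 (adjusted p = 0.169) in treatment and -0.51 (adjusted p = 0.0722) in model against control. Without control 41 the value in treatment against control turned to 0.030.

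Pmp22, a membrane protein of compact myelin whose gene dosage underlies inherited neuropathies in people, was the only member bright on every array, at or above the 95.7th percentile. Its brighter probe set measured 622.5, 473.4 and 561.9 in treatment arrays 31, 32 and 33, 633.9, 705.4 and 674.4 in model arrays 21, 22 and 23, and 378.6, 520.9 and 667.4 in control arrays 41, 42 and 43. The lowest model array lay above the highest treatment array, and the controls spanned almost the whole range. Across the 9 arrays the ratio of the brighter to the dimmer probe set varied only between 3.82 and 4.51, and the group means came in the same order with both.

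Pmp22 did not pass in any comparison. Its log2 fold change was 0.11 in treatment against control (SE 0.19, interval -0.33 to 0.54, adjusted p = 0.812), 0.39 in model against control (interval -0.05 to 0.82, adjusted p = 0.432) and -0.28 in treatment against model (interval -0.72 to 0.16, adjusted p = 0.491). With the dimmer probe set the values were 0.22, 0.45 and -0.23. Without control 43 the difference was 0.30 in treatment (adjusted p = 0.298) and 0.58 in model against control (interval 0.21 to 0.95, adjusted p = 0.0541), and without control 41 the value in treatment against control turned to -0.10. The treatment and model groups did not overlap with the brighter probe set, as for 28% of all genes in that comparison, but overlapped with the dimmer one, where treatment 31 read 151.7 and model 21 read 147.4.

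Ngfr, the p75 receptor that binds nerve growth factor and other neurotrophins and marks non-myelinating and repair Schwann cells, varied most of the 8. It measured 18.6, 19.3 and 9.44 in treatment arrays 31, 32 and 33, 13.2, 4.99 and 9.57 in model arrays 21, 22 and 23, and 90.8, 63.6 and 18.6 in control arrays 41, 42 and 43. Only controls 41 and 42 exceeded the guide genes, while control 43 was level with treatment 31 and 32. The model group lay below all controls, and the treatment group overlapped them through control 43. On the log2 scale Ngfr averaged 4.97 ± 0.27 in treatment, 4.64 ± 0.24 in model and 6.06 ± 0.84 in control arrays (SD, n = 3 each).

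**Figure D2:**
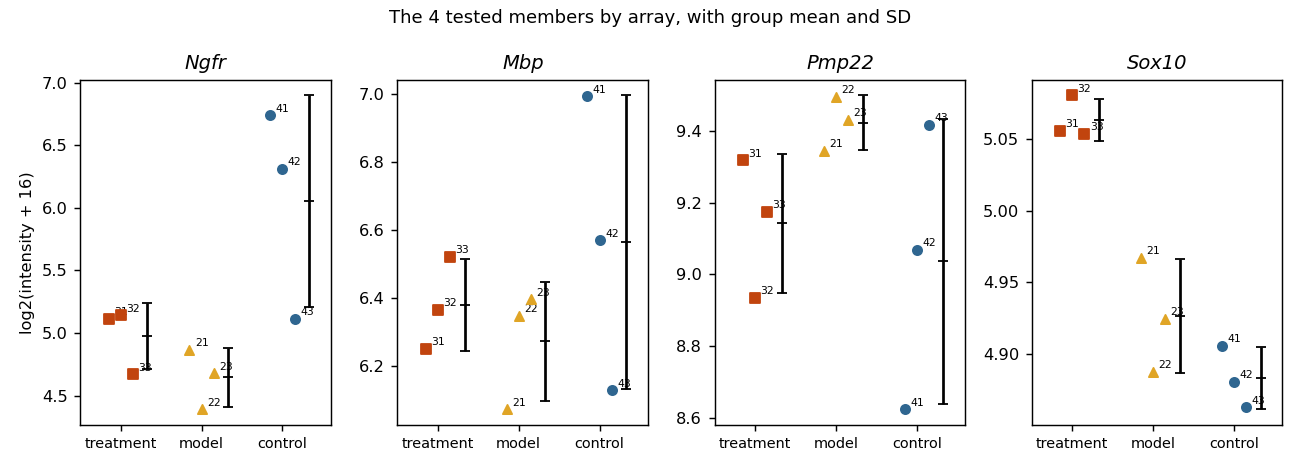
The 4 tested members on the log2(intensity + 16) scale, 1 point per array with its number, and bars for the group mean and SD (n = 3). Controls 41 and 42 are the highest arrays for Ngfr and Mbp while control 43 is not, control 41 is the lowest for Pmp22; each panel has its own axis, that of Sox10 being the narrowest.

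The Ngfr difference was -1.41 in model against control (SE 0.37, interval -2.26 to -0.56, adjusted p = 0.254) and -1.08 in treatment against control (SE 0.37, interval -1.93 to -0.23, adjusted p = 0.211), and neither passed with all 9 arrays weighted equally. Treatment differed from model by 0.33 (interval -0.52 to 1.18, adjusted p = 0.674). Because Ngfr in the treatment and model arrays lay within the range of the guide genes, the size is uncertain: with 64 or 1 added before log2 it was -0.69 to -2.34 in model and -0.56 to -1.60 in treatment against control. Groups did not overlap for Ngfr in model against control, as for 14.5% of genes.

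Without control 43, Ngfr passed as lower in both comparisons with the controls. The log2 change was -1.88 (interval -2.34 to -1.42, adjusted p = 0.00336) in model and -1.55 (interval -2.01 to -1.09, adjusted p = 0.00605) in treatment arrays against controls 41 and 42. In that fit 12.6% of all genes passed in model against control, 6.92% of all genes as lower, and 6.56% passed in treatment against control, 5.08% as lower. Both comparisons share the same control arrays, so they are not independent of each other. Without control 41 the limma values of Ngfr were -1.07 in model (adjusted p = 0.612) and -0.74 in treatment against control (adjusted p = 0.364). Without control 42 they were -1.28 (adjusted p = 0.503) and -0.95 (adjusted p = 0.392). With a single control left out, Ngfr thus passed only without control 43, its lowest control.

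**Figure D3:**
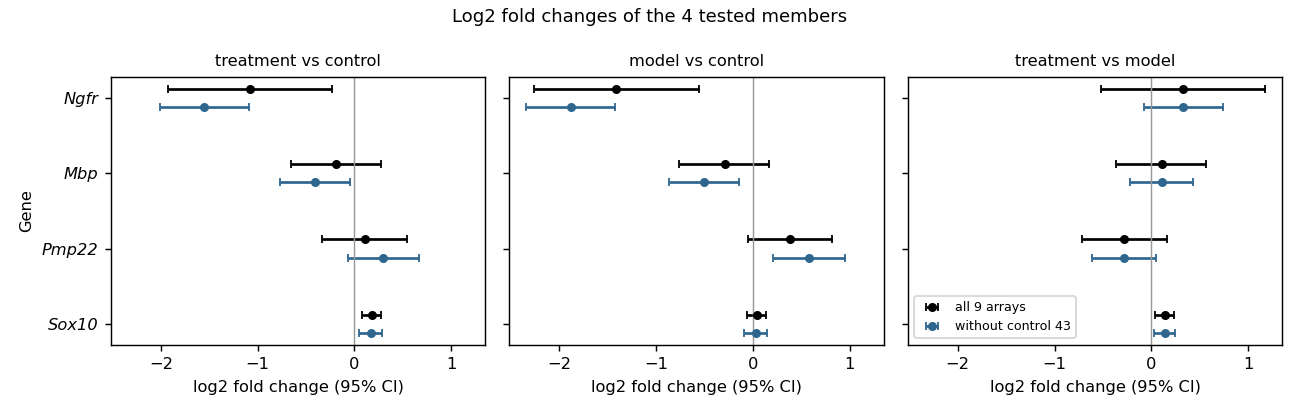
Log2 fold changes of the 4 tested members with 95% confidence intervals from limma, with all 9 arrays (black) and without control 43 (blue), in 3 comparisons. The Ngfr intervals lie below 0 in both comparisons with the controls and narrow without control 43; those of Mbp and Pmp22 cross 0 with all arrays.

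With all arrays weighted equally, then, 0 of the 4 tested members passed in limma in any comparison. With array weights estimated gene by gene, chosen after seeing the data, Ngfr passed in treatment (-1.33, adjusted p = 0.0113) and in model against control (-1.72, adjusted p = 0.0156), and Sox10 in treatment against control (0.18, adjusted p = 0.025). In that weighted fit 1277 of all 10973 genes passed in treatment against control and 852 in model against control. With equal weights 0.51% of 10973 genes passed in treatment against control, 0.0273% in model against control and 0% in treatment against model. At an unadjusted p under 0.05 the members counted were Sox10, higher, and Ngfr, lower, in treatment against control, where 17.4% of genes reached that level. Ngfr did so in model against control (12.4% of genes), and Sox10 in treatment against model (14.7% of genes). Sox10 was tested only because its treatment arrays reached the filter, so neither its weighted pass nor these counts support a difference.

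Markers of other cell types moved with the same arrays, and in bulk tissue fewer cells of a type and less RNA per cell cannot be told apart. The summed intensity of 12 measured epithelial markers of 13 listed was 4082 to 6358 in treatment, 3555 to 4711 in model, and 19836, 14501 and 4674 in control arrays 41, 42 and 43. The controls with the highest Ngfr and Mbp were thus also those with the highest epithelial sum. Without control 43, 10 of the 12 markers passed as lower in model and 4 as lower in treatment against control. Of all genes, 6.92% and 5.08% passed as lower there. Other lists had passes as higher in model against control in that fit, among them 3 of 6 adipocyte and 2 of 12 smooth muscle markers, beside 625 of all 10973 genes. The sum of 5 macrophage markers of 7 listed was highest in controls 41 and 42, at 562.9 and 498.1, with 224.9 in control 43, 328.3 to 437.5 in treatment and 154.4 to 477.8 in model arrays. Of these 5 markers, 2 were higher and 3 lower in each comparison with the controls when all 9 arrays were used. Pericytes are known to make Ngfr. The sum of 6 pericyte markers of 6 listed was 381.9 to 509.2 in treatment, 561.0 to 586.3 in model, and 354.1, 392.3 and 684.7 in control arrays 41, 42 and 43. With all 9 arrays, 3 of these 6 markers were higher and 3 lower in each comparison with the controls.

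The sum of 7 stromal fibroblast markers was 10974, 6577 and 10209 in treatment arrays 31, 32 and 33, 10807, 11687 and 8970 in model arrays 21, 22 and 23, and 6297, 8085 and 11854 in control arrays 41, 42 and 43. Its 3 lowest arrays, control 41, treatment 32 and control 42, were also the 3 lowest for Pmp22. The same 3 arrays were the lowest for the pericyte sum and for the sum of 8 endothelial markers of 9 listed, which was 985.9, 379.2 and 861.3 in treatment, 1046.7, 1199.8 and 1043.6 in model, and 669.0, 678.8 and 1404.9 in control arrays 41, 42 and 43. The sum of 12 smooth muscle markers was 22256 to 27070 in treatment, 22999 to 27410 in model, and 14387, 23295 and 20470 in control arrays 41, 42 and 43. The part of these cell types in the Ngfr, Mbp and Pmp22 values was not tested.

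**Figure D4:**
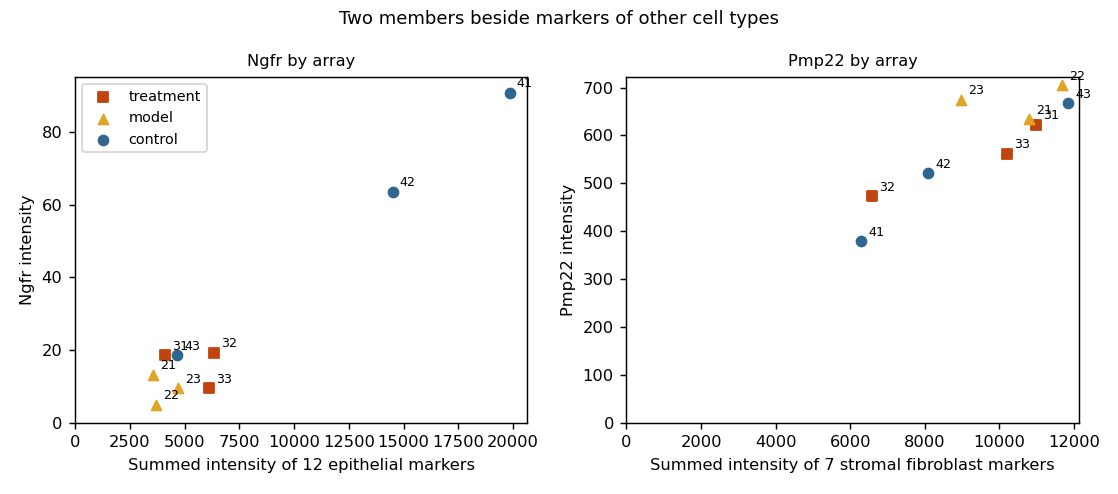
Ngfr intensity against the summed intensity of 12 epithelial markers (left) and Pmp22 intensity against that of 7 stromal fibroblast markers (right), 1 point per array with its number. Controls 41 and 42 stand alone at the upper right for Ngfr, and control 41 is the lowest in both measures for Pmp22.

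Genes with profiles most like those of the members were taken by the mean absolute difference of the standardised profiles over the 9 arrays, in SD units. Ngfr was closest to Pank1, a pantothenate kinase (0.13), Pak2, a kinase of the cytoskeleton (0.161), and Fam89a (0.166), against a median of 1.14 over all genes. Pank1 measured 31.2, 30.2 and 25.6 in treatment, 24.3, 24.8 and 24.2 in model and 77.3, 64.9 and 31.7 in control arrays 41, 42 and 43. Mbp was closest to the phosphate transporter Slc20a1 (0.141), the cholesterol esterifying enzyme Soat1 (0.147) and Arfrp1 (0.169), and Pmp22 to the proteoglycan Gpc1 (0.113), the planar polarity gene Prickle1 (0.132) and Zfp637 (0.15). The closest to Sox10 were Krt71, a hair follicle keratin (0.183), Rap1al (0.219) and Prss56 (0.221). The 4 members had no neighbour in common and none was the neighbour of another. With only the 3 nearest of 10973 genes taken for each, this says little about whether the members varied together.

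A wider set of 74 nerve genes in 5 lists gave 66 with a probe set of 1 symbol, 35 of them tested. The 31 others ranged from 2.47 to 16.4 and included Dbh and Slc6a2 of noradrenergic neurons (at most 6.79 and 9.18), Chat of cholinergic neurons (9.67), Stmn2 and Snap25 of neurons in general (6.65 and 6.22), and the myelin gene Mag (10.4). Of the 35 tested, 19 never exceeded the highest guide gene, and 5 lay above it on every array: Sncg, Rtn1, Sort1, Ntrk2 and Cnp. In limma with equal array weights 0 of the 35 passed in any comparison. At an unadjusted p under 0.05 there were 9 in treatment against control (3 higher, 6 lower), 6 in model against control (2 higher, 4 lower) and 3 in treatment against model (all higher), where 17.4%, 12.4% and 14.7% of all genes reached that level. The median log2 fold changes were 0.052, -0.002 and 0.014, beside -0.037, 0.016 and -0.054 over all genes.

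**Figure D5:**
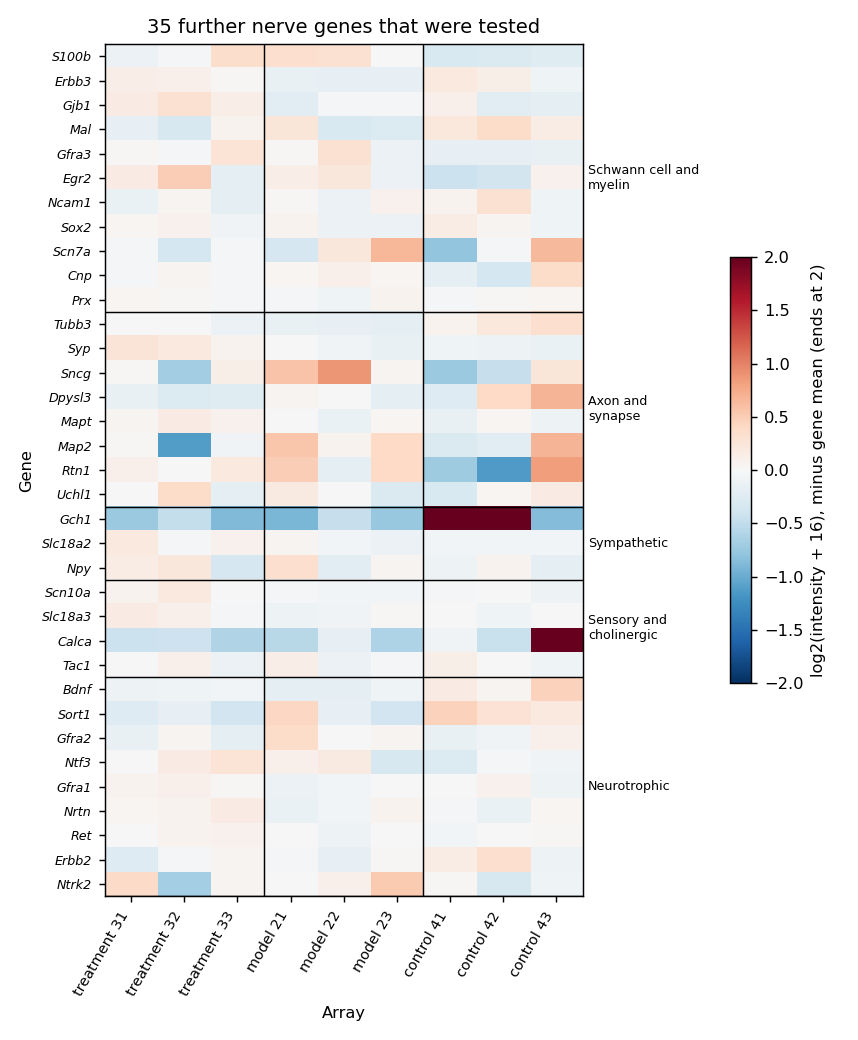
The 35 further nerve genes that were tested, by list, on 9 arrays; colour is log2(intensity + 16) minus the gene's mean, with the scale ending at 2 units. Gch1 is high in controls 41 and 42 alone and Calca in control 43 alone, and most other rows are pale.

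Among 11 tested Schwann cell and myelin genes of 20 listed, 0 passed, with 6 positive and 5 negative in treatment against control and the same split in model against control and in treatment against model. S100b, a calcium-binding protein of Schwann cells, measured 11.5, 13.3 and 22.0 in treatment, 21.6, 21.1 and 13.8 in model and 8.18, 8.41 and 9.29 in control arrays. It was lowest in the 3 controls, all within the range of the guide genes, and its log2 difference was 0.35 in treatment (adjusted p = 0.242) and 0.49 in model against control (adjusted p = 0.255). Groups likewise did not overlap for 23.3% and 14.5% of genes tested in these comparisons. S100b was tested only because treatment 33 and model 21 and 22 reached the filter. Its separation from the controls was thus partly set by the filter, and these shares do not support a difference. Erbb3, the neuregulin receptor of Schwann cells and also of epithelia, differed by -0.23 in model against control (adjusted p = 0.325) and by 0.24 in treatment against model (adjusted p = 0.286). Gjb1, the gap junction gene connexin 32 of myelin and epithelia, differed by 0.31 in treatment against control (adjusted p = 0.207). Both stayed within the range of the guide genes on every array.

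Of 8 tested axon and synapse genes of 16 listed, 0 passed. Tubb3, the neuronal beta-tubulin, measured 16.22, 16.03 and 13.6 in treatment, 13.1, 12.9 and 12.2 in model and 17.6, 21.4 and 24.8 in control arrays. Its 3 highest arrays were the controls, and all 9 values were within the range of the guide genes, with log2 differences of -0.25 in treatment (adjusted p = 0.173) and -0.37 in model against control (adjusted p = 0.162). Such a separation from the controls was seen for 23.3% of genes in treatment and 14.5% in model arrays. Syp, the synaptic vesicle protein synaptophysin, measured 40.03, 37.42 and 33.15 in treatment, 31.2, 28.5 and 26.2 in model and 28.3, 27.7 and 26.9 in control arrays, a difference of 0.28 in treatment against control (adjusted p = 0.126). Sncg, gamma-synuclein of sensory and sympathetic neurons and also of adipocytes, differed by 0.83 in model against control (adjusted p = 0.371). The sum of 6 adipocyte markers of 9 listed was 428.4 to 482.7 in treatment, 699.2 to 899.1 in model and 555.4 to 616.9 in control arrays, and its part in the Sncg value was not tested.

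Of 3 tested sympathetic genes of 10 listed, 0 passed. Gch1, the first enzyme in making the cofactor that Th needs and also used by nitric oxide synthases outside nerve, measured 12.04, 17.63 and 9.37 in treatment, 8.94, 18.0 and 11.6 in model, and 324.4, 201.6 and 9.68 in control arrays 41, 42 and 43. It was thus high in the same controls as Ngfr while Th stayed near background there, and its differences of -2.10 in treatment (adjusted p = 0.247) and -2.11 in model against control (adjusted p = 0.368) did not pass. Without control 43 they passed, at -3.24 (adjusted p = 0.000429) and -3.25 (adjusted p = 0.000389), as they did with array weights, at -2.84 (adjusted p = 0.00742) and -2.78 (adjusted p = 0.0199). Of all genes, 6.56% and 12.6% passed in these comparisons without control 43, and 1277 and 852 of 10973 with array weights. All treatment and model values of Gch1 were within the range of the guide genes, so the size of these differences depends on the 16 added before log2. Slc18a2, the vesicular monoamine transporter, and Npy, a peptide of sympathetic fibres, differed by 0.14 (adjusted p = 0.334) and 0.09 (adjusted p = 0.837) in treatment against control, and Slc18a2 stayed within the range of the guide genes.

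Of 4 tested sensory and cholinergic genes of 11 listed, 0 passed. Calca, the gene of calcitonin and the sensory peptide CGRP, measured 522.2 in control 43 and 20.0 to 36.1 on the other 8 arrays, so its difference of -1.41 in treatment against control (adjusted p = 0.41) rested on 1 array and was -0.22 without it (adjusted p = 0.428). Slc18a3, the vesicular acetylcholine transporter, and Scn10a, a sodium channel of pain fibres, differed by 0.11 (adjusted p = 0.41) and 0.12 (adjusted p = 0.347) in the same comparison, within the range of the guide genes.

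Of 9 tested neurotrophic genes of 17 listed, 0 passed. Bdnf, a ligand that binds the Ngfr product, measured 12.5, 12.8 and 13.5 in treatment, 11.1, 11.2 and 12.8 in model and 18.54, 15.97 and 26.36 in control arrays. The controls were the 3 highest, within the range of the guide genes, and the differences were -0.32 in treatment (adjusted p = 0.173) and -0.38 in model against control (adjusted p = 0.249). Of genes tested, 23.3% and 14.5% had groups that did not overlap in these comparisons. Sort1, sortilin, which pairs with the Ngfr product as a receptor for neurotrophin precursors, measured 65.5, 71.5 and 59.2 in treatment, 114.6, 71.0 and 58.8 in model and 119.28, 103.1 and 95.99 in control arrays, a difference of -0.58 in treatment against control (adjusted p = 0.196). Gfra2, a receptor for neurturin, differed by -0.24 in treatment against model (adjusted p = 0.378). Without control 43, 2 of the 35 passed in treatment against control, Rtn1 (1.02, adjusted p = 0.03) and Gch1, and 7 in model against control: Rtn1, Sncg and Cnp higher and Gch1, Erbb3, Tubb3 and Bdnf lower. Of all genes, 6.56% and 12.6% passed in those comparisons. Rtn1, a reticulon of neuronal endoplasmic reticulum, Cnp, a myelin enzyme, and the genes named above as near background were singled out after their values were seen.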

How the data were processed

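The authors deposited 1 linear intensity per probe set and array, made with MAS5 per the submitters' processing notes. Settings, scaling and detection calls were not used here, since no source states them. Of 31099 probe sets, 57 Affymetrix controls were dropped and 20826 of the rest had 1 symbol. Symbols were updated by gene ID through RefSeq (20758 matched). No genome was used for the intensities, and GRCr8 served only for the promoter windows. Intensities were taken as log2(intensity + 16), filtered at the 40th percentile in at least 3 arrays, and reduced to the probe set with the highest mean per gene, which left 10973 genes. All 9 arrays were fitted together with limma 3.58.1 in R 4.3.3 (lmFit, then eBayes with the trend option, two-sided); a gene passed at a Benjamini-Hochberg adjusted p under 0.05 over all genes. The fit was tested on simulated data. Array number sets the precision.

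The members and lists were chosen with earlier results of these data known. Named were all members, of each nerve list the genes that passed or else the 3 with the smallest p, and the 3 nearest profiles of each tested member. Alternatives were another added value, scaling, filter, treatment of probe sets, variance model, set of arrays, a replicate block by the final digit in the labels, and each array left out. Python 3.11.15 and matplotlib 3.10.9 made the figures.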

Additional observations from a re-analysis of the deposited data

How the results depend on the processing

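Of 246 recomputed log2 fold changes of the 4 tested members, under 21 alternatives, 239 kept their direction and their side of the threshold, 5 passed only in the alternative and 2 changed sign. Many of these could not change direction, so the 239 overstates how far direction was tested. Another filter or variance model, the replicate block, the 6 compared arrays alone, or a third-group array left out gave the same fold change. There only the side of the threshold could move. The changes of sign came without control 41, in treatment against control, where leaving out an array gave -0.403 to 0.030 for Mbp and -0.100 to 0.296 for Pmp22. The count of members that passed, 0 with all arrays, ranged from 0 to 1 with an array left out in treatment and in model against control, and was 1 without control 43 in both. The count of wider nerve genes ranged from 0 to 2 and from 0 to 7. The 7 included Bdnf, which was tested only because its control arrays reached the filter. Planned array weights did not converge and were not run. With weights estimated gene by gene instead, chosen after seeing the data, the test passed 2 members (Ngfr, and Sox10, which was tested only because its treatment arrays reached the filter) and 7 wider genes in treatment against control, and 1 member (Ngfr) and 3 wider genes in model against control. The counts over all genes were 1277 and 852 in that fit, against 56 and 3. With an array left out they ranged from 0 to 720 and from 0 to 1384, and from 0 to 3 in treatment against model, where 3 passed without model 23. The 2 counts above 100 with an array left out came without control 43. In model against control the count was 1 with no filter or with the 6 compared arrays alone. A replicate block by the final digit in the labels gave 27 in treatment against control and 0 members; same-digit deviations correlated at -0.408 to 0.311, so the digits do not pair the arrays. Ngfr and Sox10 were not tested under the filter at the 60th percentile. Except where named here, the cause of these changes was not tested. Low signal limits Gap43, Prph, Th, Nefl, Sox10 and all but 1 of the Mbp probe sets.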
